A study of Mus musculus with 11 samples.

Results

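Fgf21, its coreceptor gene Klb and the 4 FGF receptor tyrosine kinase genes Fgfr1, Fgfr2, Fgfr3 and Fgfr4 were followed by gene symbol through bulk RNA-seq of mouse pancreas. These 6 genes were taken from the 54532 genes of the count table, and all 6 were among the 14113 that passed the filter on low counts. They were chosen by symbol after the levels and fold changes of the same libraries had been seen, so those values are given as a description, without p-values. The whole pancreas of C57BL/6JRj mice, an inbred strain, was sampled at 7 weeks (young) or 18 months (aged). Treated mice received caerulein, a cholecystokinin analogue that overstimulates acinar cells, intraperitoneally at 125 µg/kg in 4 hourly doses. Young mice gave 3 untreated and 3 caerulein libraries, aged mice 2 untreated and 3 caerulein libraries, and the study asked how age affects the start of pancreatitis. All animals were on a chow diet with free access to water, and no transgene is named for any group. The treated libraries are labelled 5H, a time that the series describes in more than 1 way, and it is used here only as that label. The labels number the mice but say nothing else of their independence, so the errors measure the spread between these libraries.

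FGF21 is an endocrine fibroblast growth factor: it binds heparan sulfate weakly, circulates, and acts on cells that carry beta-klotho, the product of Klb, together with an FGF receptor, chiefly the c isoform of FGFR1. Ligand binding activates the receptor kinase, the adaptor FRS2 and the RAS-ERK cascade, which in turn switches on feedback inhibitors such as the Sprouty proteins. In the liver Fgf21 is known as a fasting hormone driven by PPAR-alpha and as a stress hormone driven by ATF4. In the mouse pancreas it is known to be made by acinar cells, where it promotes the secretion of digestive enzymes.

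Total counts per library ranged from 14223190 to 26537091. The pancreas label of the tissue was borne out, since none of 16 acinar markers was at 0 in any library. Their summed level was 496000 to 547000 CPM (counts over the library total, times 1e+06) in untreated and 395000 to 412000 CPM in caerulein libraries. The library of young untreated mouse 2 stood apart: 10 adipocyte markers summed to 459 CPM there against 13.3 to 36.6 CPM in the other 10 libraries, and 6 B cell markers to 142 CPM against 0.0489 to 1.37 CPM. In that library 6 macrophage markers summed to 354 CPM, against 26.2 to 87.7 CPM elsewhere, and 6 endothelial markers to 131 CPM, against 32.9 to 56.8 CPM. Results on the 6 genes, and several list results that young untreated mouse 2 moved, are given with and without its library. In whole tissue, fewer cells of a type and less RNA per cell cannot be told apart.

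The promoter windows of Fgf21 and Klb are shown because these genes differed most, Fgf21 with age and Klb with caerulein. Each window runs from 250 bases before to 50 bases after the RefSeq start on GRCm38.p6, 5′ to 3′ on the gene's own strand. For Klb the RefSeq start is not the gene start of the count table, chr5:65348314, which also lies within the window. Capitals mark matches to the motifs searched on both strands. Fgf21 lies at chr7:45615441-45615740 on the minus strand and Klb at chr5:65348161-65348460 on the plus strand.
Fgf21: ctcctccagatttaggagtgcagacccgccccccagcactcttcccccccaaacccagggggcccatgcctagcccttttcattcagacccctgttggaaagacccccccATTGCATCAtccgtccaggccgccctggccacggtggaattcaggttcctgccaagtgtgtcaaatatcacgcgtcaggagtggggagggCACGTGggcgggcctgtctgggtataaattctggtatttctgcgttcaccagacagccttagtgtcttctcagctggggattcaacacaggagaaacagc
Klb: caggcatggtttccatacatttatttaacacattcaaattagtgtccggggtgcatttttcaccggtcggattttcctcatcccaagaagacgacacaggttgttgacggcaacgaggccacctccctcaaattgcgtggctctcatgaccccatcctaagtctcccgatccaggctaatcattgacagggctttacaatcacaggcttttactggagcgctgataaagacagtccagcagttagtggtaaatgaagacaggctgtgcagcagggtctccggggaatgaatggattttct

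The Fgf21 window held ATTGCATCA, 140 bases before the start, the reverse complement of TGATGNAAT, a form of the C/EBP-ATF response element bound by ATF4 with C/EBP partners. TGATGNAAT occurred in 0.965% of all 32851 windows of this length, and of the 5 members with an entry Fgf21 alone held it. The second run of capitals, CACGTG, is the E-box hexamer, which reads the same on both strands; it began 50 bases before the Fgf21 start, and 7.15% of all windows held it. Fgfr2 also had a CACGTG, 28 bases past its RefSeq start. TTANGTAA, a core of the D-box that the repressor NFIL3 and the activator DBP can bind, occurred in 2.32% of windows and in none of the members'. The Klb window held none of the 3 motifs. A match describes letters only and shows neither binding nor activity.

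Fgf21 (ENSMUSG00000030827, chr7:45613886-45615490 on mm10, minus strand) was the member whose level differed most with age. In CPM after scaling of library totals by TMM, the young untreated mice 1, 2 and 3 had 20.1, 6.63 and 22.9. The aged untreated mice 2 and 3 had 52.3 and 58.6 CPM. Both aged libraries were above all 3 young ones, and the library that stood apart was the lowest of all 11. After caerulein, Fgf21 was at 11.3, 8.93 and 10.1 CPM in the 3 young mice. In the 3 aged caerulein mice it was at 119.5, 58.7 and 69.8 CPM. The treated young libraries were close together, the treated aged libraries were spread widely with mouse 1 far above the other two, and the ages did not overlap.

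By group mean, Fgf21 was lowest in young caerulein mice (10.1 ± 1.20 CPM, SD, n = 3), then came young untreated (16.5 ± 8.69, n = 3) and aged untreated mice (55.5 ± 4.43, n = 2), and aged caerulein mice were highest (82.7 ± 32.4, n = 3). Neighbouring groups of the same age differed by less than the larger of their SDs. Only the step from young untreated to aged untreated exceeded it. Among untreated mice the aged group was higher by 1.76 ± 0.42 on the log2 scale (SE), or 3.38-fold. Among caerulein mice it was higher by 3.03 ± 0.41, or 8.17-fold. These are age differences in the quantity of Fgf21 transcript, and no protein or plasma level was measured.

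The caerulein response of Fgf21 had opposite signs at the 2 ages, a log2 fold change of -0.70 ± 0.39 in young and 0.58 ± 0.42 in aged mice. Neither passed an adjusted p of 0.05 in edgeR's quasi-likelihood fit across all genes, and young treated and untreated libraries overlapped. All aged caerulein libraries were above both aged untreated libraries, the closest pair being 58.7 against 58.6 CPM. Set against each other, the 2 responses differed by 1.27 ± 0.58, which did not pass. Without young untreated mouse 2 the young untreated mean was 21.5 ± 2.01 CPM (n = 2), the young response was -1.14 ± 0.24, the age difference of untreated mice was 1.36 ± 0.25 and the difference between responses was 1.65 ± 0.33. All 3 of these passed in the fit without that library, where 57.6%, 0.405% and 2.29% of all tested genes were called, and the aged response, 0.51 ± 0.22, did not (background 58.3%). The age difference after caerulein was then 3.00 ± 0.22 and passed (background 14.2%). Without aged caerulein mouse 1 the aged response was 0.21. With library totals in place of TMM the aged response was 1.18 and passed, while the young response was -0.07. On that scale the median log2 fold change of all genes moved by 0.615 in aged and 0.497 in young mice. The share of all genes called higher on it is not given.

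**Figure D1:**
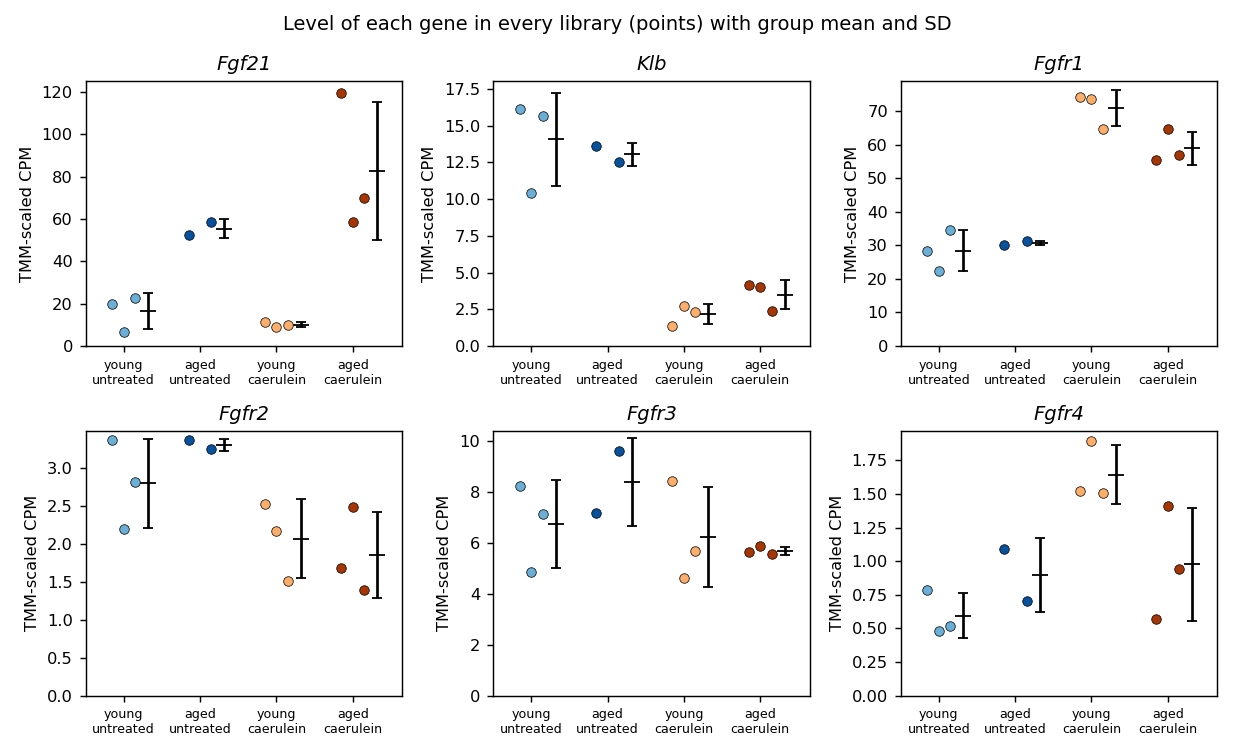
Level of each member in every library, in TMM-scaled CPM on linear axes that start at 0, with libraries as points, the group mean as a horizontal tick and the SD as a bar (n = 3, or 2 for aged untreated). Fgf21 separates by age, from 6.63 to 22.9 in young and from 52.3 to 119.5 in aged mice of either treatment, while Klb and Fgfr1 separate by caerulein.

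Klb (ENSMUSG00000029195, chr5:65348314-65384007, plus strand) encodes the single-pass membrane protein that makes a cell responsive to FGF21. In the 3 young untreated mice Klb was at 16.1, 10.4 and 15.7 CPM. In the 2 aged untreated mice it was at 13.6 and 12.5 CPM. After caerulein the young mice had 1.39, 2.73 and 2.34 CPM. The aged caerulein mice had 4.12, 4.00 and 2.39 CPM. Every treated library was below every untreated library of either age, and raw counts fell to 32 to 69 in young and 43 to 108 in aged treated mice, from 162 to 287 in untreated mice.

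The Klb log2 fold change with caerulein was -2.70 ± 0.29 in young mice, 6.49-fold lower, and -1.89 ± 0.30 in aged mice, 3.70-fold lower. The means fell from 14.1 ± 3.18 to 2.15 ± 0.685 CPM in young (n = 3 each) and from 13.1 ± 0.778 (n = 2) to 3.50 ± 0.968 CPM (n = 3) in aged mice. By mean, the order was young caerulein, aged caerulein, aged untreated and young untreated, and the last pair differed by less than its SD. The treated groups of the 2 ages overlapped, since young mouse 2 was above aged mouse 3. The aged level was higher by 0.71 ± 0.29, and the 2 responses differed by 0.81 ± 0.41; neither passed. Without young untreated mouse 2 the responses were -2.93 ± 0.24 and -1.94 ± 0.23.

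Fgfr1 (ENSMUSG00000031565, chr8:25513654-25575718, plus strand) encodes the receptor that most often pairs with beta-klotho for FGF21 signalling. Its young untreated libraries had 28.3, 22.4 and 34.7 CPM and its aged untreated libraries 30.3 and 31.2 CPM. Caerulein libraries had 74.3, 73.8 and 64.7 CPM in young mice. In aged mice they had 55.6, 64.7 and 56.8 CPM. Every treated library was above every untreated one, the reverse of the pattern of Klb. The log2 fold change was 1.32 ± 0.15 in young mice (2.49-fold) and 0.94 ± 0.17 in aged mice (1.92-fold), and without young untreated mouse 2 it was 1.12 ± 0.12 and 0.88 ± 0.12. Group means ran from 28.5 ± 6.16 (young untreated) and 30.7 ± 0.672 (aged untreated) to 59.0 ± 4.93 (aged caerulein) and 70.9 ± 5.41 CPM (young caerulein). The untreated groups differed by less than the young SD, and the treated groups by -0.27 ± 0.15 (aged against young), which did not pass. Exons of the antisense gene Gm16159 overlap 164 bases, or 1.66%, of the Fgfr1 exons, and the strand setting of the counting is not given in the sources used here.

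Fgfr4 (ENSMUSG00000005320, chr13:55152640-55168759, plus strand), known in the liver as the receptor that pairs with beta-klotho for FGF15/19 in bile acid control, was the scarcest receptor by group mean CPM. Only 9 to 48 reads per library lay behind its values. Young untreated mice had 0.787, 0.480 and 0.518 CPM. Young caerulein mice had 1.53, 1.90 and 1.51 CPM. All 3 treated young libraries were above all 3 untreated ones, with a log2 fold change of 1.47 ± 0.41 (2.76-fold), or 1.27 ± 0.46 without young untreated mouse 2. Aged untreated mice had 1.09 and 0.704 CPM. Aged caerulein mice had 0.573, 1.41 and 0.944 CPM. In aged mice the treated and untreated libraries overlapped and the fold change was 0.13 ± 0.46. The aged response minus the young one, -1.34 ± 0.62, did not pass, so the responses at the 2 ages were not shown to differ. In order, the group means were young untreated (0.595 ± 0.167 CPM), aged untreated (0.898 ± 0.274), aged caerulein (0.977 ± 0.421) and young caerulein (1.64 ± 0.220). The middle pair was the closest, with a difference under either SD.

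Fgfr2 (ENSMUSG00000030849, chr7:130162451-133123350, minus strand) encodes an epithelial receptor for paracrine ligands such as FGF7 and FGF10, which drive pancreatic bud growth in the embryo. It had 25 to 60 reads per library. Its levels were 3.37, 2.20 and 2.82 CPM in young untreated and 3.36 and 3.25 CPM in aged untreated mice. They were 2.53, 2.17 and 1.51 CPM in young caerulein and 1.68, 2.49 and 1.39 CPM in aged caerulein mice. The aged groups did not overlap, treated being lower, and the young groups did. The log2 fold changes were -0.43 ± 0.30 in young and -0.83 ± 0.33 in aged mice, and neither passed. Without young untreated mouse 2 the aged value was -0.90 ± 0.30 and passed. The group means were 1.85 ± 0.568 (aged caerulein), 2.07 ± 0.518 (young caerulein), 2.80 ± 0.587 (young untreated) and 3.31 ± 0.0785 CPM (aged untreated), and only the middle step exceeded the larger SD of its pair. Its exons share 314 bases, or 3.04%, with Ctbp2 on the same strand.

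Fgfr3 (ENSMUSG00000054252, chr5:33721674-33737068, plus strand), best known for restraining bone growth, differed least with caerulein in young mice. Young untreated mice had 8.21, 4.84 and 7.14 CPM and aged untreated mice 7.14 and 9.59 CPM. Young caerulein mice had 8.41, 4.62 and 5.67 CPM and aged caerulein mice 5.61, 5.85 and 5.55 CPM. The young groups covered the same range, while in aged mice all 3 treated libraries were below both untreated ones. The log2 fold changes were -0.11 ± 0.25 and -0.57 ± 0.28, and neither passed; without young untreated mouse 2 the aged value was -0.64 ± 0.23 and passed. The 4 group means ran from 5.67 ± 0.157 (aged caerulein, n = 3) to 8.36 ± 1.73 CPM (aged untreated, n = 2), with young caerulein at 6.23 ± 1.95 and young untreated at 6.73 ± 1.72 CPM between them, and neighbours differed by less than the larger SD. Exons of G630022F23Rik on the other strand overlap 13.9% of the Fgfr3 exons, so some Fgfr3 reads may belong to that gene if strand was not used.

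With library totals in place of TMM, the median log2 fold change of all genes moved by 0.497 in young and 0.615 in aged mice, and values are reported relative to the TMM scale. On that alternative scale Fgfr2 in young mice (0.12), Fgfr3 in young mice (0.46) and Fgfr3 in aged mice (0.06) had the opposite sign and did not pass. Klb (-2.16 in young and -1.30 in aged mice), Fgfr1 (1.87 and 1.56) and Fgfr4 in young mice (1.99) kept their signs and calls.

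**Figure D2:**
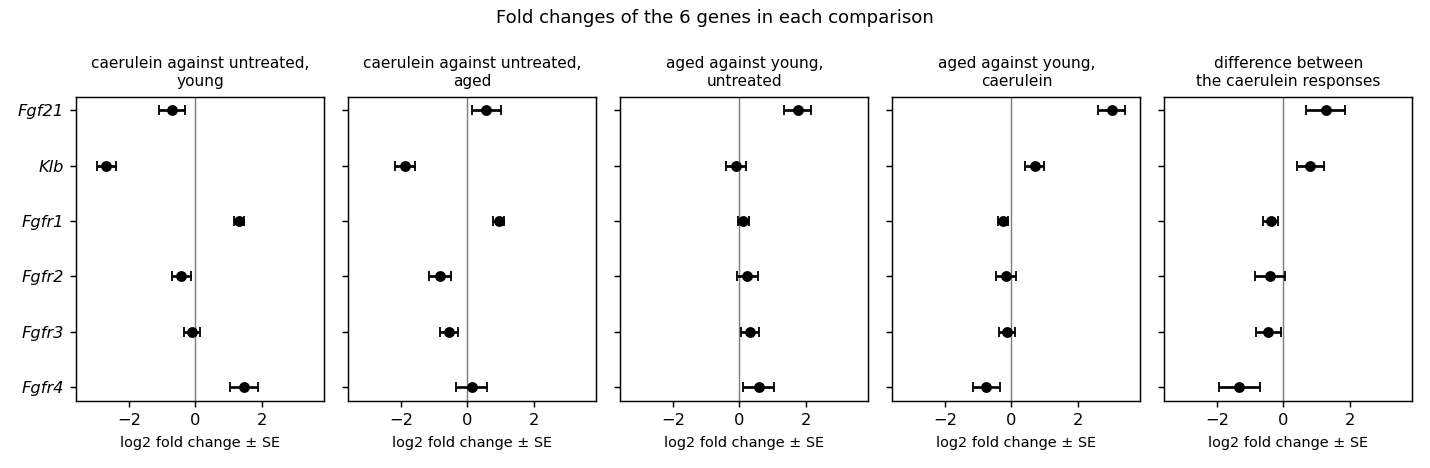
Log2 fold change of each of the 6 genes as a point with its standard error as a bar, in a panel for each of the 5 comparisons. Klb lies lowest with caerulein, at -2.70 in young and -1.89 in aged mice, and Fgf21 lies highest between the ages, at 1.76 in untreated and 3.03 in treated mice.

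Counted over the 6 genes, 3 were called in young mice with caerulein (Fgfr1 and Fgfr4 higher, Klb lower), where 52.3% of all tested genes were called. In aged mice 2 were called (Fgfr1 higher, Klb lower), against 48.2% of all genes. Of aged against young after caerulein 1 was called (Fgf21, higher), against 3.73%. In untreated mice edgeR called 0 between the ages, against 0.0921% of all genes; at an unadjusted p below 0.05 there was 1 and DESeq2 called 1, in each case Fgf21. For the difference between responses edgeR and DESeq2 each called 0, against 0.0142% by edgeR, and 1 (Fgf21) lay below an unadjusted p of 0.05. Libraries did not overlap with caerulein for 3 of the 6 in young and 5 of the 6 in aged mice, where 57.3% and 71.2% of all genes did not overlap; between the ages this was 1 untreated and 2 after caerulein, where the background was 23.2% and 30.9%. The called percentages are those of edgeR's adjusted p. DESeq2 called more of all genes between untreated ages, and the share below an unadjusted p of 0.05 is not given. Because earlier results of these contrasts were known when the genes were picked, nothing is read from these counts. The authors' deposited table of comparisons gave the same sign for 6 of 6 members in each of 4 comparisons, with log2 fold changes that differed from those here by -0.0394 to 4e-04.

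Levels per length were compared with the deposited FPKM (fragments scaled for exon length and a rescaled library total), which allow one gene to be set against another within a library. Averaged over all libraries, Fgf21 had a higher FPKM than 97.7% of the tested genes, Fgfr1 than 80.9%, Klb than 57.2%, Fgfr3 than 42.3%, Fgfr4 than 19.1% and Fgfr2 than 15.6%. This order is an average over groups: by group mean FPKM Klb was below Fgfr3 after caerulein (0.462 against 0.848 in young and 0.753 against 0.774 in aged mice), and Fgfr2 was above Fgfr4 in untreated mice (0.272 against 0.168 in young and 0.323 against 0.256 in aged mice). The ligand transcript had the highest mean FPKM of the 6 in every group. Its mean FPKM was 17.5 ± 9.33 without and 10.4 ± 1.22 with caerulein in young mice, and 58.8 ± 4.06 without and 84.8 ± 32.7 with it in aged mice. Fgfr1 was at 2.89 ± 0.665 and 7.00 ± 0.510 FPKM in young and at 3.13 ± 0.0348 and 5.84 ± 0.528 FPKM in aged mice.

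Among the 4 receptor genes Fgfr1 held the largest share of the summed FPKM in every group. In untreated mice the share was 67.7% ± 4.34 (SD, n = 3) at the young and 64.1% ± 1.56 (n = 2) at the old age. With caerulein it was 82.4% ± 2.04 and 82.8% ± 0.892 (n = 3 each). Fgfr3 was the second, at 22% ± 2.74 and 24% ± 3.87 in young and aged untreated mice, and at 9.94% ± 2.62 and 11% ± 0.735 after caerulein. Fgfr2 and Fgfr4 filled the remainder, with group means of either gene alone between 2.28% and 6.60%. A share is a relative measure: the summed receptor FPKM was itself 4.28 and 4.89 in untreated and 8.49 and 7.06 in treated young and aged mice.

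**Figure D3:**
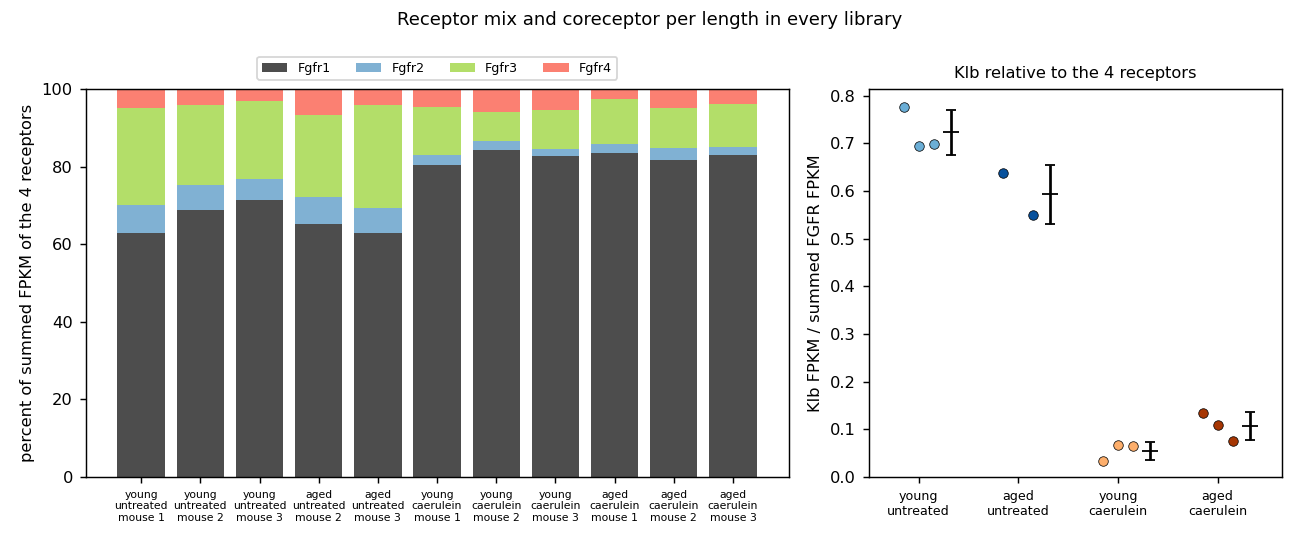
Left, share of each receptor gene in the summed FPKM of Fgfr1 to Fgfr4, in percent, as a stacked bar per library. Right, ratio of Klb FPKM to that sum, with libraries as points and the group mean and SD beside them. The Fgfr1 group means are 67.7% and 64.1% without and 82.4% and 82.8% with caerulein, and the Klb ratio is 0.723 and 0.593 without and 0.0551 and 0.107 with it.

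Coreceptor transcript was lower relative to the receptors after caerulein. The ratio of Klb to summed receptor FPKM was 0.723 ± 0.0468 and 0.593 ± 0.0627 in untreated mice of the young and old age, and 0.0551 ± 0.0195 and 0.107 ± 0.0296 in treated ones. The ratio of Fgf21 to Klb FPKM was 5.95, 3.05 and 7.00 in the young untreated and 18.4 and 22.4 in the aged untreated mice. After caerulein it was 38.9, 15.7 and 20.7 in young and 139, 70.3 and 140 in aged mice. The aged caerulein libraries lay above all others, and the aged untreated and young caerulein libraries overlapped. These ratios combine the Fgf21 and Klb values already given and add no separate measurement.

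Marker sums of other cell types moved with some of these values. Islet markers (9 genes, none at 0 in any library) ranged from 182 to 2730 CPM in young and 184 to 2530 CPM in aged caerulein libraries, and from 244 to 1900 CPM in untreated ones, a range that does not follow group. Ductal markers were at 147 to 217 CPM in untreated and 397 to 524 CPM in caerulein libraries, higher with treatment as Fgfr1 was. All marker sums are over library totals without TMM, unlike the Fgfr1 values, so the sizes of the changes cannot be compared directly. The part of ductal cells in the Fgfr1 and Klb differences was not tested. Stellate cell and fibroblast markers were at 328 CPM in young untreated mouse 2 and 98.7 to 206 CPM elsewhere. Markers of hepatocytes, where Fgf21 and Klb are also known to be expressed, summed to 7.96 to 70.2 CPM, with up to 2 of 5 at 0. The highest sum was in young untreated mouse 2 and the lowest in aged caerulein mouse 1, the libraries with the lowest and highest Fgf21. The part of hepatocytes in the Fgf21 and Klb differences was not tested.

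Transcripts of the other FGF ligands were scarce. Of 17 listed ligands, 5 passed the filter, Fgf1, Fgf2, Fgf7, Fgf9 and Fgf10, with 771, 286, 54, 77 and 68 reads over all 11 libraries. Fgf1, an acidic FGF that can bind all 4 receptors, had the highest mean at 0.716 FPKM, above the group means of Fgfr2 and Fgfr4. The other endocrine ligands were at or near 0: Fgf15, the bile acid signal from ileum to liver, had no read in any library, and Fgf23, the phosphate hormone, had 5 reads in 1 library. No tested ligand was called with caerulein at either age, by edgeR or by DESeq2, and none lay below an unadjusted p of 0.05. Leaving out young untreated mouse 1 in young or aged caerulein mouse 3 in aged mice gave 1 call. The median log2 fold change was -0.56 in young and 0.39 in aged mice, against -0.06 and 0.07 for all genes. Without young untreated mouse 2 only 2 ligands passed the filter, with medians of 0.09 and 0.60. This list and those that follow were written with earlier results of these data known.

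Among 23 tested coreceptors, decoys and heparan sulfate cofactors, 3 rose and 9 fell in young mice (median -0.83), and 4 rose and 3 fell in aged mice (median -0.12); without young caerulein mouse 3 the 12 called in young mice became 7. The called shares were 52.2% and 30.4%, against 52.3% and 48.2% of all tested genes, so the young share was that of all genes. The young median was -0.20 without young untreated mouse 2. Sdc4, a syndecan heparan sulfate carrier, rose by 2.36 ± 0.15 (adjusted p 4.18e-07, edgeR quasi-likelihood test with Benjamini-Hochberg adjustment) and 2.40 ± 0.18 (1.60e-06). Sdc1, another syndecan, rose by 1.38 ± 0.17 and 1.72 ± 0.20, and Ndst1, which sulfates heparan chains, by 1.27 ± 0.12 and 1.53 ± 0.14. Hs2st1, a 2-O-sulfotransferase of the chains, fell by 1.74 ± 0.21 and 1.32 ± 0.22 (log2). Kl, the alpha-klotho gene that serves FGF23, had group means at or below 0.348 CPM and reached 0.654 CPM in a single library. It did not pass (adjusted p 0.254 and 0.763, edgeR). Neither did Fgfrl1, which encodes a receptor without a kinase, at 0.21 ± 0.13 and -0.09 ± 0.14, nor Fap, whose protease inactivates FGF21, at -0.44 ± 0.58 and 0.35 ± 0.70, and without young untreated mouse 2 the young values of Fgfrl1 and Fap were 0.12 and -0.11.

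Downstream of the receptors, 11 of 23 tested adaptor and ERK cascade genes rose and 2 fell in young mice (median 0.45), and 15 rose and 3 fell in aged mice (median 0.58); without aged untreated mouse 3 the 18 called in aged mice became 9. The called shares were 56.5% and 78.3%, beside 52.3% and 48.2% of all tested genes. Gab2, a docking protein of the receptor complex, rose by 2.81 ± 0.13 (adjusted p 4.01e-08, edgeR) in young and 3.16 ± 0.15 (1.06e-07) in aged mice. Nras rose by 1.80 ± 0.16 and 2.49 ± 0.20, and Ptpn11, the SHP2 phosphatase, by 1.44 ± 0.11 and 1.20 ± 0.13. These kinases and adaptors serve many receptors besides those for FGFs.

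Feedback and target genes of FGF-ERK signalling numbered 19 tested, of which 9 rose and 1 fell at each age (median 0.87 in young and 1.88 in aged mice). The called share, 52.6% at each age, was near that of all tested genes, 52.3% and 48.2%. The young median was 1.46 without young untreated mouse 2. The early genes Egr1 and Fos rose by 4.69 ± 0.51 and 5.90 ± 0.57 in young and by 7.73 ± 0.73 and 8.11 ± 0.78 in aged mice. Without that mouse their young values were 5.36 ± 0.45 and 7.36 ± 0.61. Ier3 and Myc rose by 3.46 ± 0.26 and 2.33 ± 0.15 in young and 5.28 ± 0.35 and 2.22 ± 0.18 in aged mice. Negative regulators of RAS-ERK signalling stood on both sides of the threshold. Spred1 and Spred2, which restrain RAF activation, rose by 0.93 ± 0.22 and 1.35 ± 0.22 in young and by 2.17 ± 0.27 and 1.88 ± 0.26 in aged mice. Il17rd, the Sef inhibitor of FGF signalling, rose by 0.87 ± 0.28 and 0.86 ± 0.32, and the young value, 0.65 ± 0.28, did not pass without young untreated mouse 2. Dusp5, a nuclear ERK phosphatase, rose by 4.43 ± 0.57 in young mice, or 5.93 ± 0.35 without that mouse. In aged mice Dusp5 was called higher from 0 and 2 reads in the untreated to 3984, 2140 and 2864 reads in the treated libraries. Dusp4, on the same list, did not pass, at 0.35 ± 1.14 in young and 2.68 ± 1.71 in aged mice. Without young untreated mouse 2 it passed as higher, at 5.15 ± 1.12 and 2.61 ± 0.92. These 4 genes and Dusp4 were named after their values were seen. Spry2 and Spry4, Sprouty inhibitors of RAS signalling, did not pass, at -0.30 ± 0.28 and 0.10 ± 0.34 in young and 0.28 ± 0.32 and 0.57 ± 0.39 in aged mice. Neither did Dusp6, a cytoplasmic ERK phosphatase, at -0.75 ± 0.39 and 0.38 ± 0.45, nor the ETS factors Etv4 and Etv5, at 0.70 ± 1.09 and -0.51 ± 0.41 in young and 1.55 ± 1.24 and 0.18 ± 0.47 in aged mice. With young untreated mouse 2 left out, the young values were 0.43 for Spry4, -0.08 for Dusp6, 1.56 for Etv4 and -0.14 for Etv5, and none passed.

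**Figure D4:**
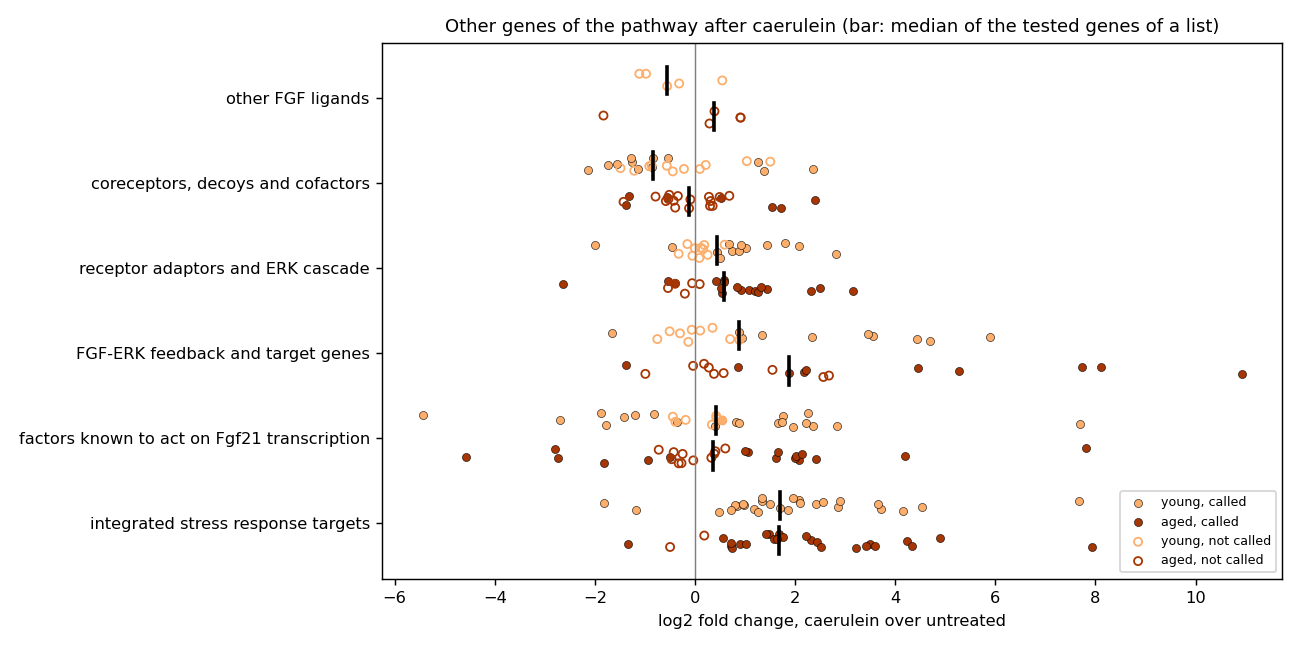
Log2 fold change with caerulein of every tested gene of the 6 pathway lists, light points for young and dark points for aged mice, filled where edgeR called the gene and open where it did not, with a black bar at each list's median. The stress response medians lie at 1.71 and 1.69 with nearly all points filled, and all points of the other FGF ligands are open.

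Of 28 genes whose products act on Fgf21 transcription, 13 rose and 8 fell in young mice and 11 rose and 6 fell in aged mice (medians 0.43 and 0.36). Of all tested genes 27.5% were called higher and 24.7% lower in young mice, and 27% and 21.2% in aged mice. When young untreated mouse 2 was left out, the young median was 0.26. Atf4, the activator of Fgf21 under amino acid or endoplasmic reticulum stress, was at 111 ± 41.6 and 120 ± 5.47 CPM in untreated and 435 ± 32.2 and 506 ± 20.7 CPM in treated young and aged mice. It rose by 1.97 ± 0.24 (adjusted p 4.99e-05, edgeR) and 2.08 ± 0.28 (0.000116). Its young value was 1.64 ± 0.11 without young untreated mouse 2. Nfil3, a D-box repressor of Fgf21 in mouse liver, rose from 0.648 to 129.9 ± 3.36 CPM in young and from 1.09 to 237 ± 45.2 CPM in aged mice, log2 changes of 7.69 ± 0.37 and 7.82 ± 0.44. Ppara, the fasting activator, fell by 1.89 ± 0.31 and 2.81 ± 0.35. Thrb, the thyroid hormone receptor beta gene, fell by 2.69 ± 0.25 and 2.74 ± 0.26, while Nfe2l2 rose by 1.75 ± 0.16 and 2.42 ± 0.19. Ern1, the IRE1 stress sensor, rose by 2.22 ± 0.18 and 2.01 ± 0.21, and its young value was 1.97 ± 0.11 without young untreated mouse 2.

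Targets of the integrated stress response, to which Fgf21 belongs, showed the most uniform change. Of 27 tested, 25 rose and 2 fell in young mice (median 1.71), and 24 rose and 1 fell in aged mice (median 1.69). The called shares of 100% and 92.6% stood beside 52.3% and 48.2% of all tested genes. Without young untreated mouse 2, 24 rose and 2 fell in young mice (median 1.47), where 57.6% of all tested genes were called. Atf3, a stress-induced repressor, rose by 7.67 ± 0.20 and 7.94 ± 0.24 (adjusted p 2.38e-09 and 1.52e-08, edgeR). Trib3, a pseudokinase target of ATF4, rose from 7.68 ± 5.84 to 175 ± 16.7 CPM in young and from 7.56 ± 0.121 to 143 ± 28.1 CPM in aged mice. Ppp1r15a, Slc7a11 and Cebpg rose by 2.91 ± 0.16, 2.56 ± 0.15 and 2.08 ± 0.13 in young mice and by 3.41 ± 0.19, 2.44 ± 0.18 and 2.32 ± 0.15 in aged mice. Ddit3, the CHOP gene, had 0.54 ± 0.45 and 0.60 ± 0.52 and did not pass, and its young value was 0.10 without young untreated mouse 2. Fgf21 in young mice, at -0.70 ± 0.39, lay on the other side of 0 from the medians of this list.

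Calls between the ages depended on young untreated mouse 2. With all libraries, in untreated mice edgeR called 0 in each of the 6 lists, where 0.0921% of all tested genes were called. Below an unadjusted p of 0.05 by edgeR were 0 ligands, 4 coreceptors and cofactors, 3 adaptors and ERK genes, 5 feedback genes, 2 Fgf21 factors and 2 stress response targets. The share of all genes below that unadjusted p is not given, so nothing is read from such counts. DESeq2 called 1 gene each among feedback genes and stress targets. After caerulein, Sdc1 (0.69 ± 0.16, adjusted p 0.0431), Hnf4a (1.28 ± 0.17, 0.00308), a hepatocyte and epithelial nuclear receptor, Sirt1 (0.71 ± 0.17, 0.0453), a deacetylase, and Slc7a1 (1.23 ± 0.17, 0.00308), an arginine and lysine carrier, were higher in aged mice by edgeR's quasi-likelihood test. Hras (-0.74 ± 0.13, 0.00986) and Mapk3 (-0.48 ± 0.11, 0.0437), the ERK1 gene, were lower. The called shares were 4.35% of coreceptors and cofactors, 8.7% of adaptors and ERK genes, 7.14% of factors and 3.7% of stress targets. Of all tested genes 3.73% were called. For the difference between responses edgeR called 0 in each list, against 0.0142% of all tested genes. In the same order, 0, 4, 5, 4, 6 and 4 genes lay below an unadjusted p of 0.05, and DESeq2 called 0, 0, 1, 4, 2 and 2. Between untreated ages and for this difference DESeq2 also called more of all tested genes than edgeR. Those counts are given in the last section, and nothing is read from the DESeq2 list counts.

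Without young untreated mouse 2, edgeR called more list genes between the ages, as it did over all genes (14.2% of 13567 after caerulein, 3.73% with every library). After caerulein 11 of 27 stress response targets and 5 of 19 feedback genes were called higher in aged mice and 0 lower, as were 3 of 21 coreceptors and cofactors. Of the factors 6 were higher and 2 lower, and of the adaptors 3 and 3. Among the genes already named, Egr1 (1.40 ± 0.29), Fos (1.24 ± 0.26), Ier3 (0.72 ± 0.18), Nfil3 (0.84 ± 0.17), Nfe2l2 (0.46 ± 0.13), Atf3 (0.47 ± 0.12), Cebpg (0.33 ± 0.09), Hs2st1 (0.64 ± 0.19) and Sdc1 (0.67 ± 0.15) then passed as higher in aged mice. Young untreated mouse 2 is in neither caerulein group and enters this comparison only through the shared fit. With it Egr1, Fos, Ier3 and Hs2st1 were at 1.42 ± 0.43, 1.26 ± 0.40, 0.74 ± 0.21 and 0.67 ± 0.21 and did not pass. Sdc1 passed either way. In untreated mice 1 stress target was higher and 1 lower, where 0.405% of all genes were called. For the difference between responses the calls were 3 stress targets, 1 feedback gene and 1 factor higher and 1 adaptor lower, where 2.29% of all genes were called.

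Likeness of pattern was measured as the root mean square difference of centred log2 CPM over the 11 libraries, among 10775 protein-coding genes with a mean of at least 1 CPM. The 5 genes most like Fgf21 were Bdh2 (0.611), Fgl2 (0.686), Tuba8 (0.714), Aatk (0.730) and Ric3 (0.743). Mean levels, given first for untreated mice (young, aged) and then for treated mice (young, aged), were 35.8, 61.1, 27.4 and 144 CPM for Fgl2, a secreted fibrinogen-like protein. Those of Bdh2 were 0.914, 5.78, 0.661 and 3.40 CPM, so that the aged mean of Bdh2 was lower with caerulein than without. Aatk was at 3.91, 6.82, 3.83 and 25.1 CPM. Tuba8 had 1.06, 1.32, 0.742 and 3.62 CPM and Ric3 1.82, 3.20, 1.44 and 4.07 CPM. The distances for Fgf21 were larger than those for the other members, whose 2 nearest genes were Mrm2 and Alg6 for Klb (0.261 and 0.265), Map3k9 and Polr1d for Fgfr1 (0.123 and 0.126), Hcfc1r1 and Mpi for Fgfr2 (0.175 and 0.186), Luc7l2 and Zfc3h1 for Fgfr3 (0.155 and 0.188), and Mterf4 and Enpp1 for Fgfr4 (0.311 and 0.328). Likeness here says nothing of shared control.

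**Figure D5:**
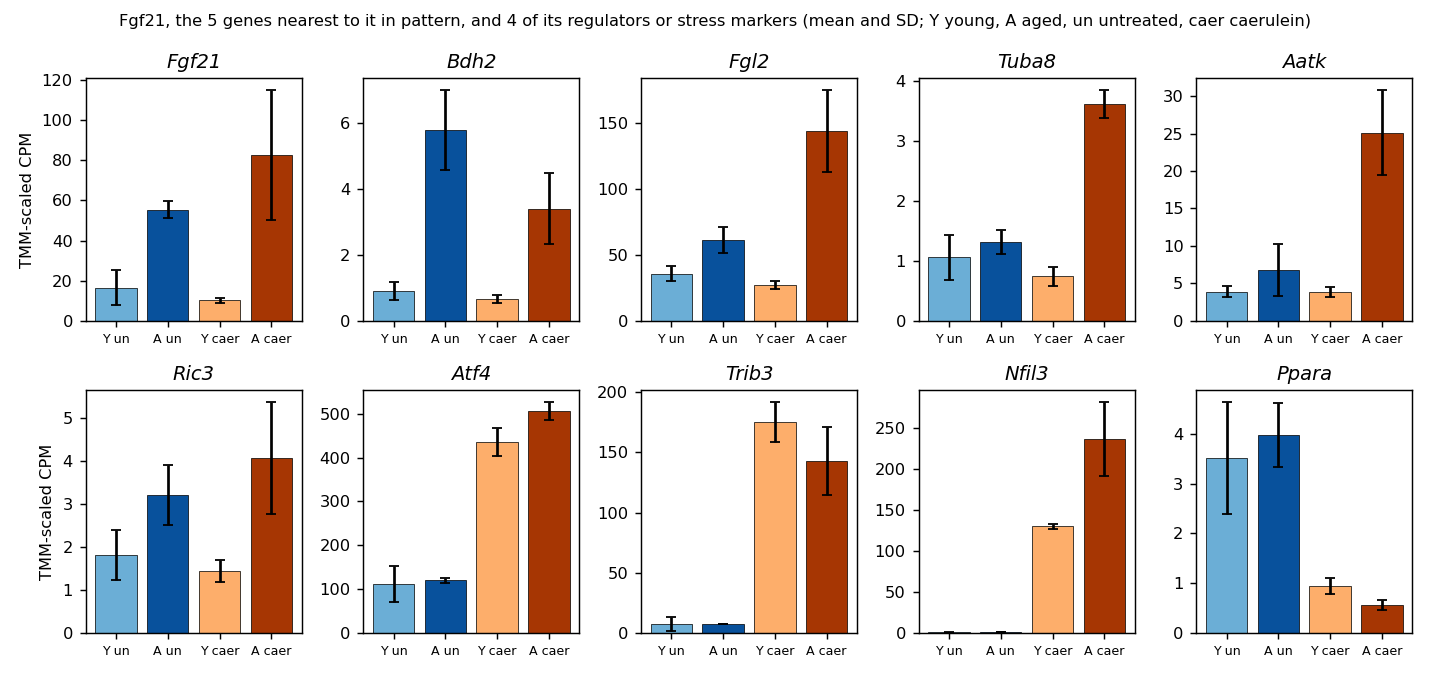
Mean TMM-scaled CPM (bars from 0, with SD, n = 3, or 2 for aged untreated) of Fgf21, the 5 genes most like it, and the stress or regulatory genes Atf4, Trib3, Nfil3 and Ppara in the 4 groups. In Fgf21 and the 5 genes like it both aged bars are above both young ones, while Atf4, Trib3 and Nfil3 are higher and Ppara is lower in both caerulein groups.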

How the data were processed

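Poly(A) RNA of 11 pancreas libraries was read as 150-base pairs, per the labels' protocols. Per the submitters' processing notes, the authors used HISAT2 2.0.5, featureCounts 1.5.0-p3 and the mm10 build. The deposited count table holds raw counts per gene. The deposited FPKM values were used to set genes against each other, in shares and ratios, and as group means, but not in tests. Within a library they equal counts per length and total times one constant (0.7525 to 1.438). The authors' deposited comparison tables hold log2 fold changes.

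Here edgeR 4.0.16 (R 4.3.3) was run on counts of genes passing filterByExpr (minimum count 10), with TMM factors of 0.696 to 1.29, 1 fit over 4 groups, 5 comparisons, quasi-likelihood F tests and Benjamini-Hochberg adjustment over all genes tested (called below 0.05). It was tested on simulated data. Alternatives were DESeq2 1.42.0, other scalings and filters, the mouse number as a block, only the groups compared, and each library left out. Mouse numbers did not pair libraries.

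The members and lists were chosen with earlier results of these data known. Genes named are the members, up to 4 called genes of smallest p per list, a fixed set of pathway genes and the genes nearest in pattern; list genes called between the ages were named after their values were seen. A gene that the rule names is not reported here. Gene positions equal GENCODE M21 for all 6 members.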

Additional observations from a re-analysis of the deposited data

How the results depend on the processing

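Of 930 alternative values, 826 stayed within their limits (for a count, 1.5 times), 104 moved and in 0 did a called value change sign (some uncalled values did, among them Fgfr4 in aged mice, -0.24 without aged caerulein mouse 2); of 534 member fold changes 508 stayed and 26 moved. With library totals alone, 1269 genes were lower with caerulein in young and 1074 in aged mice (3488 and 2998 with TMM), the age differences were 3 higher and 0 lower in untreated (8 and 5 with TMM) and 99 and 116 in treated mice (347 and 179), the response difference had 0 and 0 (1 and 1), and Fgf21 in aged mice was 1.18. With no filter, untreated age differences were 72 and 635, treated lower 307, and response differences 547 and 127. With DESeq2 these were 36 and 27, 590 and 323, and 183 and 99. With only the groups compared, they were 2 and 0 in untreated and 971 and 715 in treated mice, and 7 coreceptor and cofactor genes were called in young mice (12 otherwise).

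Mouse numbers did not pair the libraries (15 same-numbered pairs, r from -0.207 to 0.163, 6 over 0.1; 4 of 11 libraries correlated best with their own number). With the mouse number as a replicate block, untreated age differences were 3 higher and 0 lower, treated lower 111, and Fgfr3 in aged mice (-0.67) passed.

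Leaving out each library in turn gave 3409 to 4181 higher and 2697 to 3637 lower genes in young, 2925 to 4164 and 1970 to 3748 in aged mice, 2 to 35 and 0 to 20 for untreated age, 109 to 1065 and 60 to 856 for treated age, and 0 to 201 and 0 to 110 for the response difference. Fgf21 ranged from -1.14 to -0.39 in young, 0.21 to 0.77 in aged, 1.36 to 2.07 and 2.67 to 3.22 for age, and 0.91 to 1.65 for the difference. Genes called in the lists, young then aged, ranged over 0 to 1 and 0 to 1 (ligands), 7 to 12 and 5 to 8 (coreceptors), 11 to 15 and 9 to 19 (adaptors), 9 to 10 and 9 to 12 (feedback), 18 to 21 and 14 to 21 (factors), and 25 to 27 and 20 to 26 (stress targets). The upper ends of all 6 age and response ranges came without young untreated mouse 2. The lowest count for treated age, higher, and for coreceptors in young mice came without young caerulein mouse 3, and the 1970 and the 9 adaptors without aged untreated mouse 3. Leaving out either aged untreated mouse leaves 1, assumed to vary like the other groups. Without young untreated mouse 2 the adaptors that fell in aged mice were 5 in place of 3. The causes of these moves were not tested.

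Fgf21 also passed as higher in aged untreated mice with no filter (1.72) and with DESeq2 (1.75), as lower with caerulein in young mice with no filter (-0.68), and in the response difference with no filter (1.28). Fgfr2 in aged mice passed with DESeq2 size factors (-0.89), the stricter filter (-0.91), only the groups compared (-0.92) and without aged caerulein mouse 2 (-1.10), and Fgfr3 with only the groups compared (-0.66). The fit with no filter tested 27020 genes and, like DESeq2, called more untreated age and response differences than the main fit. The share of all genes called is not given for these settings, so nothing is read from these passes. Fgfr4 rests on 9 to 48 reads per library, which limits its precision.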
